A study of Mus musculus with 2 samples.

Results

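The 8 genes described here encode receptors, adaptors, ubiquitin ligases and kinases of TNF receptor and non-canonical NF-κB signalling: Tnfrsf1a, Ltbr, Traf1, Traf3, Birc2, Birc3, Map3k14 and Map3k1. ELF3 and NFKB2 were mapped by CUT&RUN, a method that cuts out and sequences the DNA next to an antibody-marked protein, in tubular epithelial cells cultured from the kidneys of wild-type mice. The cells had received TNFα and IFNγ, a pair of inflammatory cytokines, and the data used comprise 1 library per antibody from the same batch, with no untreated cells. A region belonged to a gene when it overlapped a window of the gene with about 20 kb on each side, which gave 6 windows because Ltbr and Tnfrsf1a, and Birc2 and Birc3, share one each. These windows held 35 of 68319 ELF3 regions and 15 of 14217 NFKB2 regions. Each antibody having 1 library, there is no replicate error, and the antibodies were not compared by a test. Intervals in the text are 95% intervals that cover counting error only, and CUT&RUN regions carry no expression levels against which the labelled cell type could be checked.

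TNFR1, the product of Tnfrsf1a, binds TNF and assembles a complex in which the ubiquitin ligases cIAP1 and cIAP2, encoded by Birc2 and Birc3, mark other components for canonical NF-κB and kinase signalling. In the non-canonical arm, receptors such as LTβR, encoded by Ltbr, act through the kinase NIK, encoded by Map3k14, which drives processing of the NFKB2 precursor p100 to the DNA-binding subunit p52. In resting cells TRAF3 brings NIK to the cIAP ligases for degradation. ELF3 belongs to the ETS family of transcription factors, whose members bind a GGAA core, and is active mainly in epithelia.

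Promoter sequences show what DNA lies in front of these genes. They were taken from RefSeq (build GRCm38.p6), where all 8 genes matched, as the 250 bases before each start, and Birc2 has a pair of starts, so 9 promoters were read. The build differs from that of the regions, so the sequences were matched by gene and not by position, and no summit was placed on a base of them. The 4 printed here belong to the gene with the strongest NFKB2 region at its start (Birc3), the gene with the strongest ELF3 region at its start (Map3k14), the only member with the NF-κB consensus in its promoter (Traf3), and a gene with a pair of CGGAAG matches and no region of either factor at its start (Tnfrsf1a). Capitals mark matches on either strand to the NF-κB consensus (GGG, a purine, any base, A or T, then a pair of pyrimidines and CC) and to CGGAAG, an extended ETS core.
Birc3, chr9:7873171-7873420, minus strand: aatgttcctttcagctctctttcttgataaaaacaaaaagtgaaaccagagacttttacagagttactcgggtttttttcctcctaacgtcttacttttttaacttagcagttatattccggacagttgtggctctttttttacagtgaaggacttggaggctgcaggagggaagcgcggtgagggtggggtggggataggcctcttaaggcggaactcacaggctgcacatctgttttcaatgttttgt
Map3k14, chr11:103267402-103267651, minus strand: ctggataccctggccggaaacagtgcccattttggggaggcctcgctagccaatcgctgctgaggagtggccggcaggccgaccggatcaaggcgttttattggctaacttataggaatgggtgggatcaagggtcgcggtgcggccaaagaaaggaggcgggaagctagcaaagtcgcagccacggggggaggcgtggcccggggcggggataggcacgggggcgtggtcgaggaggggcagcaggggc
Traf3, chr12:111166120-111166369, plus strand: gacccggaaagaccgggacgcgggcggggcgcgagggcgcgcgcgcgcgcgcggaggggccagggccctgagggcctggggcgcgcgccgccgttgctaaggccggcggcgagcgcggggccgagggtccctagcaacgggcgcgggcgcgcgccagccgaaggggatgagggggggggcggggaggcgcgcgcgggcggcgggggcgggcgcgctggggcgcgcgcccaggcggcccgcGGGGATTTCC
Tnfrsf1a, chr6:125349473-125349722, plus strand: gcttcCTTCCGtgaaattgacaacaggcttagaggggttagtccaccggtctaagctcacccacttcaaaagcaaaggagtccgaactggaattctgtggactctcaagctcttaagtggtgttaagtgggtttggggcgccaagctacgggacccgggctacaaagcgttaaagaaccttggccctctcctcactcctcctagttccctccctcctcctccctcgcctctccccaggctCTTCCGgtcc
The single NF-κB consensus match, GGGGATTTCC, lay at bases 10 to 1 before the Traf3 start. It was the only one in the 9 promoters, and 3.90% of all 32851 RefSeq promoters held such a match. CGGAAG was found in the promoters of Ltbr and Tnfrsf1a and at the second Birc2 start, against 13.6% of all RefSeq promoters. A looser pattern, GGG and CC parted by any 5 bases, which every NF-κB consensus match also meets, occurred in 6 of the 9 promoters and in 45.8% of all promoters. GGAA, which CGGAAG contains and which NF-κB matches can overlap, occurred in every one of the 9 promoters and in 93.4% of all. These matches describe the letters only.

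Signal is given as fragments at the summit, a whole number recovered from the deposited fold and p of each region. Each list has a lowest local background, called the floor here, of 1.22 fragments for ELF3 and 1.36 for NFKB2, and ratios were adjusted by the quotient of these, 1.11. The regions of these genes had about the usual strength, with a median of 21 ELF3 fragments against 22 over autosomes and X, and of 17 NFKB2 fragments against 16. They were dense. ELF3 had 59.5 regions per Mb in the windows and 26.6 per Mb over the part of autosomes and X that holds regions. NFKB2 had 25.5 per Mb in the windows and 5.53 per Mb over the same part. ELF3 regions covered 6.83% of the windows and 1.83% of autosomes and X, and NFKB2 regions covered 1.52% and 0.282%. Every window held at least 1 region of each factor, while 69.7% of 100 kb stretches of autosomes and X held an ELF3 region and 29.2% an NFKB2 region. Windows of other genes were not analysed, so the density was not compared with that around genes in general.

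ELF3 and NFKB2 regions overlapped in all 6 windows. Overlap by 1 bp or more with NFKB2 was found at 14 of 35 ELF3 regions (40.0%, exact binomial interval 23.9 to 57.9%), against 19.7% in the whole list. Where both lists were limited to a −log10 q of at least 10, these shares were 5 of 26 (19.2%, 6.56 to 39.4%) and 11.5%. Conversely, 14 of 15 NFKB2 regions met an ELF3 region (93.3%, 68.1 to 99.8%), a share like the 96.8% of the whole list. A −log10 q of 10 or more was reached by 26 of the 35 ELF3 regions (74.3%), against 66.0% of the ELF3 list, and by 6 of the 15 NFKB2 regions (40.0%), against 37.8% of the NFKB2 list. The shared ELF3 regions had a median of 32.5 fragments and the others 18, and they were wider, with medians of 1306.5 and 389 bp. Over the whole list the same medians were 43 and 19 fragments and 909 and 345 bp. The 14 shared regions were spread unevenly over all 6 windows. They were 5 of 7 ELF3 regions at Map3k1, 3 of 9 at Map3k14 and 2 of 5 at Birc2 and Birc3. They were 2 of 9 at Ltbr and Tnfrsf1a, 1 of 2 at Traf1 and 1 of 3 at Traf3. The share was highest at Map3k1 (71.4%, 29.0 to 96.3%). It was lowest at Ltbr and Tnfrsf1a (22.2%, 2.81 to 60.0%), close to the 19.7% of the whole list.

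**Figure D1:**
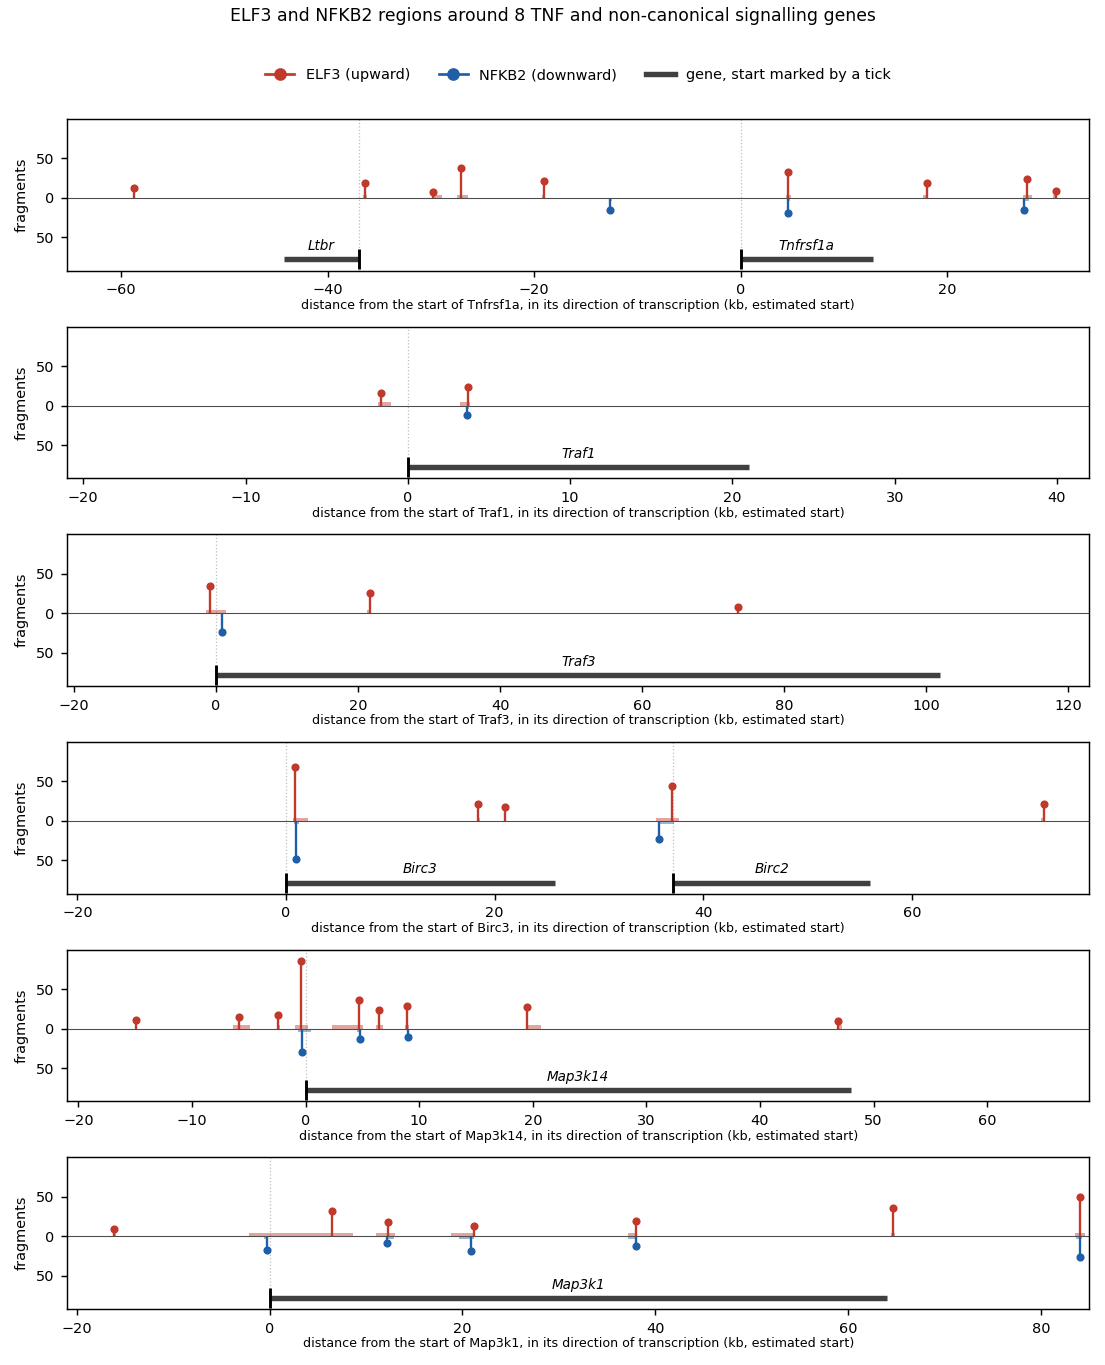
Each panel shows 1 gene window, with the distance from a gene start in kb on the x axis and fragments at the summit on the y axis, ELF3 upward and NFKB2 downward; shaded boxes give the extent of each region. The tallest ELF3 lines stand at the starts of Map3k14 (85) and Birc3 (68), and the tallest NFKB2 line at Birc3 (48).

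Gene starts were taken from the ends of the windows, with RefSeq gene lengths where a window holds a pair of genes, and are estimates. The window and the RefSeq length differ by 0.362 to 1.17 kb at Map3k14, Traf1 and Traf3 and by 7.84 kb at Map3k1. The windows of paired genes allow no such check, and the distances between their RefSeq starts were not compared. Differences of up to 1.17 kb are as large as the limit of 1 kb used next, so calls at starts can depend on them. A region with any part within 1 kb of the estimated place is called at the start, so its summit may lie farther away. By this measure 6 of the 8 genes had an ELF3 region at the start and 5 had an NFKB2 region there. The same shares over all genes could not be computed without an annotation of the build. These counts were therefore not compared with genes in general. Map3k14, Birc2, Birc3, Traf3 and Map3k1 had both, Ltbr had ELF3 alone, and Traf1 and Tnfrsf1a had neither. An ELF3 region beside Traf1 fell just outside the limit, at 1.03 kb, and the NFKB2 regions of Birc3 and Traf3 just inside it, at 0.795 and 0.783 kb. With a limit of 0.5 kb, ELF3 was at 5 starts and NFKB2 at 3, and with a limit of 2 kb, which takes in Traf1, ELF3 was at 7 and NFKB2 at 5.

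The window of the receptor genes held 9 ELF3 and 3 NFKB2 regions, of which 2 pairs were shared, and the NFKB2 regions had 15, 19 and 15 fragments. At the start of Ltbr, which encodes the lymphotoxin β receptor, an ELF3 region (chr6:125290697-125291027) had 19 fragments and no NFKB2 region was listed. Upstream of Ltbr, on the side of Scnn1a and Tnfrsf1a, 3 further ELF3 regions without NFKB2 had 8, 38 and 21 fragments at about 7.2, 9.8 and 17.8 kb from the start. The one with 38 fragments (chr6:125299781-125300851) was the strongest ELF3 region of this window and lacked an NFKB2 region. An ELF3 region of 12 fragments lay about 21.8 kb downstream of the Ltbr start, past the other end of the gene.

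Tnfrsf1a had no region of either factor within 1 kb of its estimated start, where its promoter holds the CGGAAG matches shown above. Inside the gene, about 4.6 kb from the start, ELF3 (chr6:125331615-125332071) had 33 fragments and NFKB2 (chr6:125331763-125332004) had 19, with summits 28 bp apart. The local background there was 1.28 times the floor for ELF3 and 1.53 times for NFKB2, and its part in the result was not tested. A second shared region lay about 27 kb from the start and past the end of the gene, towards Plekhg6, the next protein-coding gene in the RefSeq table. It had 24 ELF3 fragments (chr6:125354545-125355440) and 15 NFKB2 fragments (chr6:125354641-125355192). The ELF3 background was at the floor and that of NFKB2 was 1.53 times the floor. Their part in the result was not tested. The summits were 324 bp apart. The other ELF3 regions downstream of Tnfrsf1a had 19 and 9 fragments and no NFKB2 region.

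The only NFKB2 region of all windows without ELF3 lay between these receptor genes, where the RefSeq table places Scnn1a, which encodes a subunit of the epithelial sodium channel. This region (chr6:125314527-125314756), about 12.6 kb upstream of Tnfrsf1a, had 15 NFKB2 fragments (8.40 to 24.7, exact Poisson interval) at a background equal to the floor. In the NFKB2 list 44.9% of regions had a lower −log10 q. Over the whole list, NFKB2 regions without ELF3 had a median of 12 fragments.

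The windows of the adaptor genes held 2 and 3 ELF3 regions and 1 NFKB2 region each. Traf1, which encodes an adaptor without the RING domain of most other TRAFs and is a well-known NF-κB target, had 2 ELF3 regions and 1 NFKB2 region in its 61 kb window. The shared region lay inside the gene, about 3.7 kb from the start. ELF3 (chr2:34848146-34848790) had 24 fragments there and NFKB2 (chr2:34848237-34848431) had 12, with summits 90 bp apart. The ELF3 region in front of the gene (chr2:34853027-34853837) had 16 fragments and no NFKB2 region. The only NFKB2 region of this window therefore lay inside Traf1, while the ELF3 region in front of the gene was too near the 1 kb limit to be placed at or off the start.

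Traf3, the adaptor that holds NIK in check, had 1 shared region, at its start. ELF3 (chr12:111130527-111133398) had 34 fragments over a wide region of 2872 bp, and NFKB2 (chr12:111132783-111132978) had 24 fragments in a narrow one of 196 bp. The NFKB2 region thus lay inside the ELF3 region and covered 6.83% of it. The summits did not coincide: they were 1760 bp apart, with ELF3 on the upstream side. The NFKB2 region ranked high, with 83.4% of the NFKB2 list at a lower −log10 q, and the promoter of this gene is the one with the NF-κB consensus printed above. Inside the 102 kb of the gene, 2 further ELF3 regions had 25 and 8 fragments, about 21.7 and 73 kb from the start, without NFKB2. The only other protein-coding gene that the RefSeq table places near Traf3 is Amn, and no region of either factor lay in the downstream flank.

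The ubiquitin ligase genes had regions of both factors at both starts, with more fragments at Birc3 than at Birc2. At Birc3, which encodes cIAP2 and is a well-known NF-κB target, ELF3 (chr9:7871919-7873337) had 68 fragments and NFKB2 (chr9:7872806-7873205) had 48. This was the strongest NFKB2 region of the 8 genes, number 281 of 14217 by −log10 q, and the ELF3 region was number 3317 of 68319. The summits were 31 bp apart and both backgrounds were at the floor. The ELF3 over NFKB2 ratio, 1.57 after adjustment (1.07 to 2.33), equalled that at the Traf3 start, where the summits were 1760 bp apart. Counted by fragments, only 1 of the shared regions described here, in Map3k1, had a lower ratio. The ELF3 region spanned 1419 bp and the NFKB2 region 400 bp.

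At Birc2, which encodes cIAP1, ELF3 (chr9:7836326-7838511) had 44 fragments and NFKB2 (chr9:7836849-7838374) had 23. The pair overlapped over 1526 bp, but the summits were 1277 bp apart. The NFKB2 summit was the one farther upstream, about 1.39 kb in front of the estimated start, which only the edge of its region reached. The ELF3 background was at the floor and that of NFKB2 was 1.53 times the floor; their part in the result was not tested. The window of these genes held 3 more ELF3 regions, none with NFKB2: a pair inside Birc3 with 21 and 18 fragments, about 18 and 21 kb from its start, and 1 with 22 fragments past the end of Birc2. No other region lay in the 20 kb flank in front of Birc3.

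Map3k14, which encodes NIK, had 9 ELF3 regions and 3 NFKB2 regions, and all 3 NFKB2 regions lay on ELF3. At the start, ELF3 (chr11:103157763-103158956) had 85 fragments (67.9 to 105), the most of any region here, and NFKB2 (chr11:103157488-103158646) had 30 (20.2 to 42.8). The summits were 93 bp apart. This place had a raised background, 2.43 times the floor for ELF3 and 1.53 times for NFKB2, and its part in the result was not tested. The ELF3 region was nevertheless number 3651 of 68319 by −log10 q.

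Both further shared regions of Map3k14 lay inside the gene. About 4.7 kb from the start, ELF3 (chr11:103152975-103155681) had 36 fragments and NFKB2 (chr11:103153160-103153429) had 13. About 9.0 kb from the start, ELF3 (chr11:103148887-103149223) had 29 fragments and NFKB2 (chr11:103148917-103149076) had 10, one of the weakest NFKB2 regions of the list, with 2.23% at a lower −log10 q. Summits were 67 and 51 bp apart. Backgrounds were at the floor except that of the NFKB2 region of 10 fragments, 1.53 times the floor, whose part was not tested. The adjusted ELF3 over NFKB2 ratios at the 3 places were 3.14 (2.05 to 4.94), 3.07 (1.59 to 6.32) and 3.22 (1.52 to 7.40). By fragments these were the highest of all 14 shared regions here, but such ratios take no account of local background. Deposited folds of ELF3 and NFKB2 were 21.6 and 9.97 at the Map3k14 start, and 20.2 and 7.72 at the Birc2 start. By fold, ELF3 thus exceeded NFKB2 by more at Birc2 than at the Map3k14 start. Inside Map3k14 the folds were 16.6 and 5.86, and 13.5 and 3.55. The 6 ELF3 regions without NFKB2 had 10 to 27 fragments, with 3 upstream of the start and 3 inside the gene.

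Map3k1, which encodes MEKK1, a kinase upstream of the JNK pathway, had the most shared regions and the broadest ELF3 signal. The ELF3 region at its start (chr13:111937363-111948102) was 10.7 kb wide, and only 25 ELF3 regions in the whole list were wider. Regions over 10 kb made up 0.0439% of the ELF3 list. It reached from in front of the start well into the gene, and its summit, with 32 fragments, lay about 6.4 kb inside. The background at the summit was 2.43 times the floor, and its part in the result was not tested. NFKB2 (chr13:111946144-111946537) had 17 fragments in a region of 394 bp close to the estimated start, 6.66 kb from the ELF3 summit, and covered 3.67% of the ELF3 region.

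Deeper in Map3k1, 3 more regions were shared. About 12 kb from the start, ELF3 (chr13:111932959-111934942) had 18 fragments and NFKB2 (chr13:111933122-111933824) had 9. About 21 kb from the start, ELF3 (chr13:111924769-111927140) had 13 fragments and NFKB2 (chr13:111924838-111926400) had 18. This was the only shared region of the 8 genes with NFKB2 above ELF3 after adjustment, at an ELF3 over NFKB2 ratio of 0.802, and its interval of 0.361 to 1.73 included equal signal. About 38 kb from the start, ELF3 (chr13:111907904-111908885) had 19 fragments and NFKB2 (chr13:111907913-111908880) had 12, and the regions coincided over 98.6% of the ELF3 length. All 3 had backgrounds at the floor in both lists and regions of 703 bp or more for both factors.

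A strong shared region crossed the outer end of the Map3k1 window, about 20 kb past the gene end that the window gives. The RefSeq length, 7.84 kb longer, would bring that end nearer. ELF3 (chr13:111861424-111862520) had 50 fragments and NFKB2 (chr13:111861803-111862381) had 26, with both summits on the same base, just outside the window. Its background was 1.67 times the floor in both lists, and its part in the result was not tested. When the summit had to lie inside the window, this pair dropped out, leaving 34 ELF3 and 14 NFKB2 regions. The ELF3 regions of Map3k1 without NFKB2 had 36 and 9 fragments, near the end of the gene and about 16 kb upstream. The one with 36 was counted downstream, but with the RefSeq length from the same start it would lie inside the gene.

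**Figure D2:**
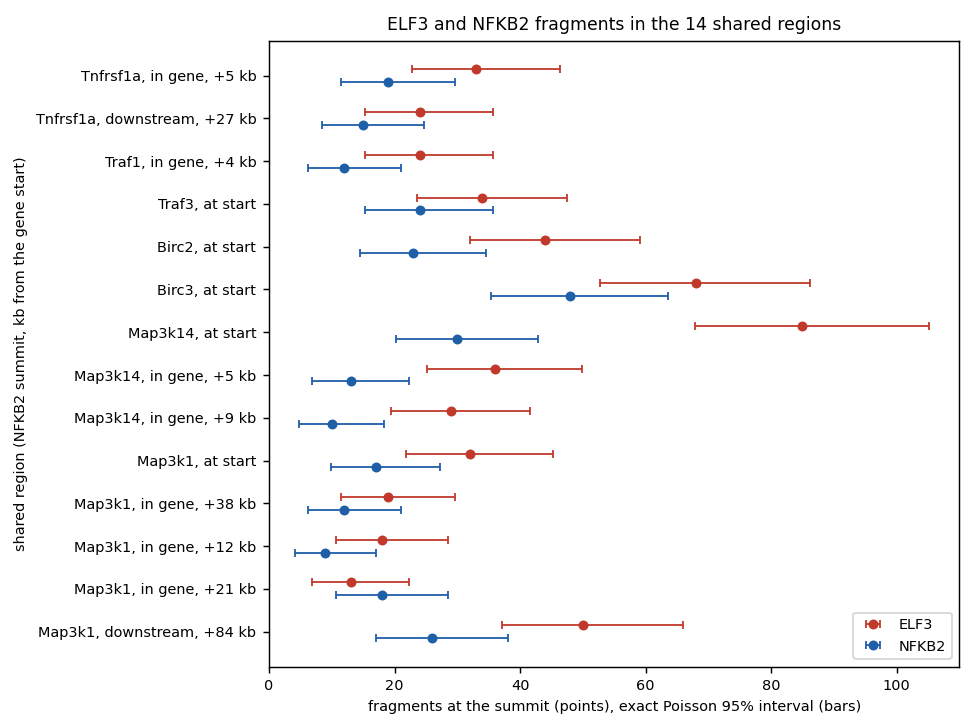
Fragments at the summit (x axis) of ELF3 and NFKB2 in each of the 14 shared regions (y axis), before depth adjustment, with exact Poisson 95% intervals as bars. ELF3 points lie to the right of NFKB2 points in every row but 1, the Map3k1 region about 21 kb inside the gene (13 and 18).

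Across the 14 shared regions ELF3 exceeded NFKB2 in 13, and NFKB2 exceeded ELF3 in 1, against 4.95% of shared regions in the whole series. The median adjusted ELF3 over NFKB2 ratio was 2.11 (quartiles 1.76 and 2.22), against 2.74 (1.89 and 3.91) over all 13769 shared regions. Of the 14 ratios, 11 lay below that overall median, and the 3 above it were those of Map3k14. Taken singly, 9 of the 14 intervals excluded equal signal, without allowance for their number, and 5 included it. The same count was not made over all shared regions, so it was not compared with the whole series. Ratios and intervals take no account of local background. At the Map3k1 start, whose interval excluded equal signal, deposited folds were 8.29 for ELF3 and 7.53 for NFKB2. The regions not separated from equal signal were those at the Traf3 start, past the end of Tnfrsf1a, and the 3 deep inside Map3k1. Summits lay within 100 bp of each other in 9 of 14 pairs, against 75.5% in the whole series. At Birc2, Traf3 and Map3k1 the distance exceeded 1 kb, in each case at the gene start. The ratios of these pairs compare signal at separate places, not at the same place.

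**Figure D3:**
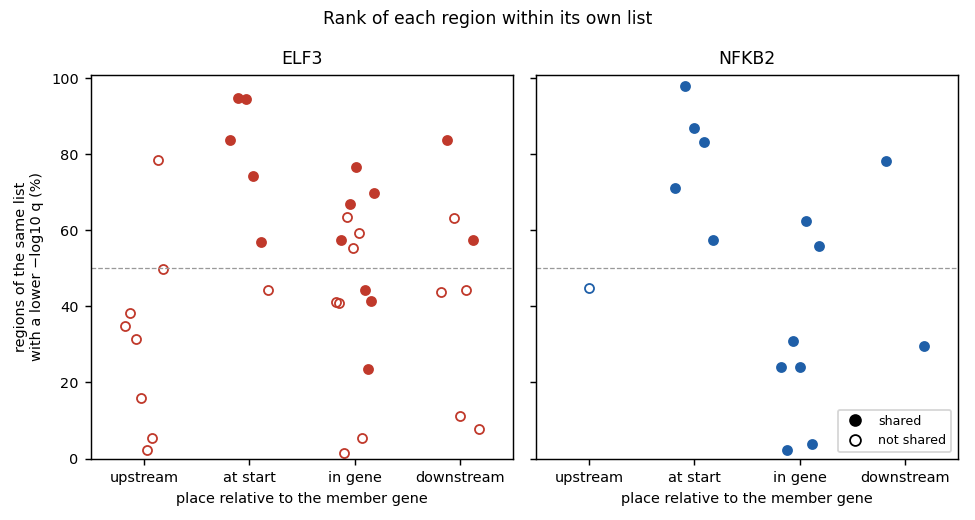
The y axis gives, for each region, the share of regions of its own list with a lower −log10 q, by place relative to the gene on the x axis, for ELF3 (left) and NFKB2 (right); filled points are shared regions and open points are not. All 5 NFKB2 regions at gene starts lie above the dashed line at 50%, from 57.4 to 97.9%.

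The ELF3 region of most fragments, at Map3k14, and the NFKB2 region of most, at Birc3, stood at gene starts. Past the end of Map3k1, ELF3 still had 50 fragments and NFKB2 26. Places were assigned by region edges and fragments counted at summits. The end of Map3k1 was the one its window gives, so its split between inside and downstream is uncertain. The ELF3 summit of the Map3k1 start region lay 6.43 kb from the start, and the NFKB2 summit of the Birc2 one 1.39 kb. ELF3 regions at starts had a median of 39 fragments (19 to 85), those inside genes 22 (8 to 36), those downstream 22 (9 to 50) and those upstream 15.5 (8 to 38). NFKB2 regions at starts had a median of 24 fragments (17 to 48) and those inside genes 12 (9 to 19). The ranges of NFKB2 at starts and inside genes overlapped only through the Map3k1 start, with 17 fragments, and regions inside Tnfrsf1a and Map3k1, with 19 and 18. None of the 8 ELF3 regions placed upstream was shared with NFKB2, whereas 5 of 6 at starts, 7 of 14 inside genes and 2 of 7 downstream were. In the whole ELF3 list 19.7% were shared, and shared regions had more fragments, with medians of 43 against 19. The places are groups of few regions from 1 library each, and the differences between places were not tested.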

How the data were processed

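The data are region lists of 2 CUT&RUN libraries, 1 with an ELF3 and 1 with an NFKB2 antibody. Per the submitters' processing notes, MACS2 made the lists. Its version and settings, the aligner and the control are not given in the sources at hand, and an IgG list was not analysed here. The notes name mm10, but the deposited sequence names belong to GRCm39, so coordinates are printed as deposited, 1-based. Each deposited fold is a ratio of signal over local background at the summit. The −log10 p and −log10 q values, as deposited, are those of the summit too. The deposited score is 10 times −log10 q, cut to a whole number, and was not used.

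Fragments and background were solved from the deposited fold, (fragments + 1) over (background + 1), and the Poisson −log10 p, to within 0.01, or 0.01 per 100 for values above 100, for 100% of ELF3 and 99.97% of NFKB2 regions. A fragment counted 1 for ELF3 and 0.964 for NFKB2. On simulated lists of 67327 and 13895 regions the numbers were recovered in 100% and 99.99%. The depth ratio of 1.11 is that of the lowest backgrounds in fragments. The floor held 70.8% of ELF3 and 70.3% of NFKB2 regions. Weak regions are not listed: the lowest counts were 6 and 8 fragments. Shares have exact Clopper-Pearson 95% intervals, counts exact Poisson ones, and ratios exact binomial ones. No p-value was computed, since regions are not replicates.

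Without an annotation of the files' build, gene starts came from the windows, which match the RefSeq gene lengths of GRCm38.p6 within 0.362 to 1.17 kb at Map3k14, Traf1 and Traf3; the table entry of Map3k1 is 7.84 kb longer than the window allows. A planned list of other pathway genes needs such an annotation and was not run. All 8 genes were described, with the strongest, start, shared and NFKB2-only regions by position and the rest by count and range. Genes and lists were chosen with earlier results of these data known. Python 3.11.15, numpy 2.4.6, scipy 1.17.1, pandas 2.3.3 and matplotlib 3.10.9 were used.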

Additional observations from a re-analysis of the deposited data

How the results depend on the processing

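Settings varied the −log10 q limit, the flank, the overlap rule, the start limit and the quantity compared; the value without depth adjustment and the one without the widest ELF3 region were added after the data were seen, as was the reading of overlap with a start as a limit of 0.5 kb. Of 40 values 35 stayed within 1.5 times the reported one or, for shares, within its interval. A −log10 q of at least 10 was met by 6 of 15 NFKB2 regions, which covered 0.889% of the windows, and put 19.2% of ELF3 regions on NFKB2; fewer regions pass by construction. With summits within 100 bp, 60% of NFKB2 regions were shared, a stricter rule by construction. With a start limit of 0.5 kb, NFKB2 was at 3 starts, and with 2 kb at 5. The median ELF3 over NFKB2 ratio ranged from 1.90, without depth adjustment, to 2.22. ELF3 cover without the Map3k1 start region was 5.005%. No paired analysis was possible because each antibody has 1 library. Single ratios rest on few fragments, and a place without a listed region may still be bound.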
